A study of Mus musculus with 16 samples.

Results

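The genes described here carry a microRNA symbol, that is, a symbol that starts with Mir and a digit or with Mirlet7, and an expected count of at least 160 summed over 16 libraries of mouse proximal jejunum. The files list 37620 gene IDs, of which 621 carry such a symbol and 266 of those have any count. The rule found 9 genes: Mir5117, Mir22hg, Mir677, Mir3068, Mir17hg, Mir1949, Mir1839, Mir215 and Mir1983. These 9 held 98.461% of all counts on microRNA-named genes. The genes were chosen by this measured sum over all libraries, so their levels are a description. Just inside the threshold were Mir1839, Mir215 and Mir1983 with summed counts of 774, 549.81 and 307.71, and just outside were Mirlet7g, Mir182 and Mir30d with 135, 134 and 107.42. The unirradiated libraries alone gave each of the 9 a summed count of at least 200, so none of them depended on the irradiated groups to reach 160.

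The mice were CBA/J males, 8 weeks old, with no genetic change named in the labels. They formed 4 groups of 4 libraries. The first group ate a methionine adequate diet and received 0 Gy, the second ate that diet and received 8.5 Gy of gamma radiation, the third ate a methionine supplemented (300%) diet and received 0 Gy, and the fourth ate the supplemented diet and received 8.5 Gy. The design text gives 6 days, and whether these count the diet, the time after irradiation or both is not stated. The labels name no animal behind a library, so p-values measure the spread between libraries. Fewer cells of a type and less RNA per cell cannot be told apart in whole tissue.

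A microRNA is made from a hairpin in a longer transcript. Drosha with Dgcr8 cuts the hairpin out in the nucleus, Xpo5 carries it to the cytoplasm, Dicer1 cuts it to a short duplex, and an Argonaute protein such as Ago2 keeps one strand, whose seed (bases 2 to 8) pairs with target messages. Small nucleolar RNAs (snoRNAs) guide chemical changes on ribosomal RNA, and their relatives the small Cajal body RNAs (scaRNAs) guide them on spliceosomal RNA. Many lie in introns of host genes and are released when the host is spliced. C/D box snoRNAs carry a C box (TGATGA) near the start and a D box (CTGA) near the end, and H/ACA box RNAs end in ACA and a short tail. Some fragments of such RNAs have been catalogued as microRNAs.

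The counted reads were on average longer than a mature microRNA. Ribosomal RNA was removed, the rest was fragmented and a small RNA library kit was used, and the effective lengths in the files imply mean read lengths of 45.03 to 48.37 bases. In the annotation used here (GENCODE M21), 4 of the 9 genes are snoRNAs (Mir5117, Mir677, Mir3068 and Mir1949), Mir1839 is a scaRNA, Mir22hg and Mir17hg are long non-coding host transcripts, and Mir215 and Mir1983 alone are typed as microRNAs. For Mir677, Mir3068, Mir1949 and Mir1839 that annotation holds a second gene ID of the same name typed as a microRNA, and these second IDs are not in the files. The name therefore covers 3 kinds of RNA, and the results are given by kind. Mir3068, Mir1949, Mir1839 and Mir215 also overlap exons of other non-coding genes on the same strand. These are Gm29362, AC121821.1, 2900076A07Rik and 2010103J01Rik, in that order, and they are not in the files. Reads from them cannot be told apart from those of the small RNAs.

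The gene models of the small RNAs are printed to show what each counted gene is annotated as. They are DNA sequences of the annotated transcripts, read 5′ to 3′. In the first pair, capitals mark the C and D box letters:
Mir5117: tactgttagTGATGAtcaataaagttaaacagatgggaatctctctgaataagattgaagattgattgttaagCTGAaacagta
Mir677: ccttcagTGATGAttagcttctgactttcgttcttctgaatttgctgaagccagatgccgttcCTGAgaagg

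In the next 3 models, capitals mark the catalogued mature microRNAs:
Mir3068: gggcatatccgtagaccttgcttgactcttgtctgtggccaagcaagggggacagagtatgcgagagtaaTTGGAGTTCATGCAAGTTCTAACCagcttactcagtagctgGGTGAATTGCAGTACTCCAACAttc
Mir1839: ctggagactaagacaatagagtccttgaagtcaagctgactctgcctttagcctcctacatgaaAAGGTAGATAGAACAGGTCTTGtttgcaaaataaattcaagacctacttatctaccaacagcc
Mir215: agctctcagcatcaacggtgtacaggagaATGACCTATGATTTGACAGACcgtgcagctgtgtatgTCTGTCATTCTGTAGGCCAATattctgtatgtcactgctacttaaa

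In the last, capitals mark GTTCGA, the core letters of the B box of transfer RNA genes:
Mir1983: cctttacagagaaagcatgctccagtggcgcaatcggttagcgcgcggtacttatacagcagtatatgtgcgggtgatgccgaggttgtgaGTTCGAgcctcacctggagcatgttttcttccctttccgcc

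Mir5117 (84 bases, chromosome 1) has TGATGA from base 10 and CTGA from base 74, and Mir677 (72 bases, chromosome 10) has them from bases 8 and 64. TGATGA within the first 20 bases together with CTGA within the last 20, on the transcript strand, is found in 64.8% of 454 snoRNA models of 60 to 100 bases and in 0.0772% of 1295 microRNA models of that length. Mir3068 (136 bases, chromosome 12) and Mir1839 (127 bases, chromosome 7) end in ACA and 3 more bases, as 24% of 958 snoRNA models of 110 to 150 bases do, against 1.13% of 532 microRNA models. Mir5117 also has ACA at that place. Mir1949 (141 bases), the other snoRNA-type gene, has neither that ending nor the C and D box letters in those windows. GTTCGA occurs in 0.188% of those microRNA models, which is 1 model, Mir1983 itself, and in 0.104% of the snoRNA models. A match of letters is a description of the model, not proof of a working box.

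Mature microRNAs catalogued in RefSeq (GRCm38.p6) are listed here with the seed in capitals. All but miR-192-5p lie within these models, and miR-215-3p, marked in the Mir215 model above, is left out:
mmu-miR-677-5p: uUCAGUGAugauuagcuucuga
mmu-miR-677-3p: gAAGCCAGaugccguuccugagaagg
mmu-miR-3068-5p: uUGGAGUUcaugcaaguucuaacc
mmu-miR-3068-3p: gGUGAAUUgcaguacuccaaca
mmu-miR-1839-5p: aAGGUAGAuagaacaggucuug
mmu-miR-215-5p: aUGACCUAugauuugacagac
mmu-miR-192-5p: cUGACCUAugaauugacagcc
mmu-miR-1983: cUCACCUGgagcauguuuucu

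miR-677-5p starts at base 3 of its model and holds the C box letters as UGAUGA, and miR-677-3p starts at base 47 and holds the D box letters as CUGA. miR-3068-3p starts at base 112 and ends on the terminal ACA of its model. miR-215-5p shares its seed, UGACCUA, with miR-192-5p, the other member of that family, which is listed because both are known as abundant microRNAs of the intestinal epithelium. None of the other mature sequences in this list shares a seed with another. With mean read lengths of 45.03 bases or more, a count on Mir677 or Mir3068 cannot be assigned to the mature microRNA rather than to the snoRNA around it.

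Levels between genes are compared per length, in TPM (the length-scaled abundance deposited by the authors), within a group. In unirradiated mice on the adequate diet the order was Mir5117 at 1811 ± 549 TPM, Mir677 at 301 ± 90.4, Mir3068 at 50.5 ± 12.0, Mir1949 at 26.8 ± 10.3, Mir215 at 23.6 ± 11.2, Mir1839 at 17.0 ± 4.02, Mir1983 at 10.6 ± 4.68, Mir22hg at 4.55 ± 1.9 and Mir17hg at 0.603 ± 0.0457 (SD, n = 4). The neighbours Mir1949 and Mir215, and Mir215 and Mir1839, differ by less than the SD of Mir215, and the ranges of mean ± SD of Mir1839 and Mir1983 overlap, while those of Mir1949 and Mir1983 do not. The snoRNA-type genes led and the long host transcripts came last.

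TPM was not used between groups, because short RNAs took a growing part of it. Genes shorter than 200 bases held 75.2% ± 1.16 of TPM without radiation and 86% ± 1.56 after it in mice on the adequate diet. With methionine supplementation they held 76.4% ± 2.74 and 88% ± 2.74, while their share of the counts went from 8.78% ± 0.683 to 15% ± 1.26 and from 8.62% ± 1.21 to 16.9% ± 3.65 (SD, n = 4 libraries each). The median log2 difference of all 16558 tested genes was -0.749 and -0.877 on the log2(TPM + 0.5) scale. Groups are therefore compared in CPM, the count as a share of the library total scaled by its TMM factor, on which the median was 0.006 and 0.007. Fold changes below are on the log2 scale with their standard error (SE), and a gene is called where edgeR's quasi-likelihood F test gives an adjusted p under 0.05 (Benjamini-Hochberg, over all 16558 genes).

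Radiation went with higher levels of several of these genes, and diet with none that passed the test. On the adequate diet 3 of the 9 genes rose (Mir5117, Mir3068 and Mir17hg) and none fell, where 7.13% of all tested genes rose and 6.58% fell. On the supplemented diet 4 of the 9 rose (those 3 and Mir1949) and none fell, where 8.03% of all tested genes rose and 7.21% fell. Mir5117, Mir677, Mir3068, Mir1949 and Mir1839 are typed as snoRNAs or a scaRNA, and such genes rose more often. Among 265 tested snoRNAs and scaRNAs other than Mir5117, 51.7% rose on the adequate and 49.8% on the supplemented diet. Their median log2 fold changes were 0.88 and 0.86. The median log2 fold change of the 9 was 0.75 and 0.61, and 8 of 9 were above 0 in each comparison. The 4 libraries per group did not overlap between doses for 4 of the 9 with adequate methionine and 3 of the 9 with supplementation, where 19.5% and 18.7% of all tested genes did not overlap in either direction. On the deposited TPM scale the signs of Mir17hg on both diets and of Mir3068 and Mir1949 on the supplemented diet turn negative, while each of these lies above the median of all genes on that scale. The log2 TPM difference minus that median was 0.71 and 0.58 for Mir17hg (adequate and supplemented diet), 0.73 for Mir3068 and 0.52 for Mir1949.

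**Figure D1:**
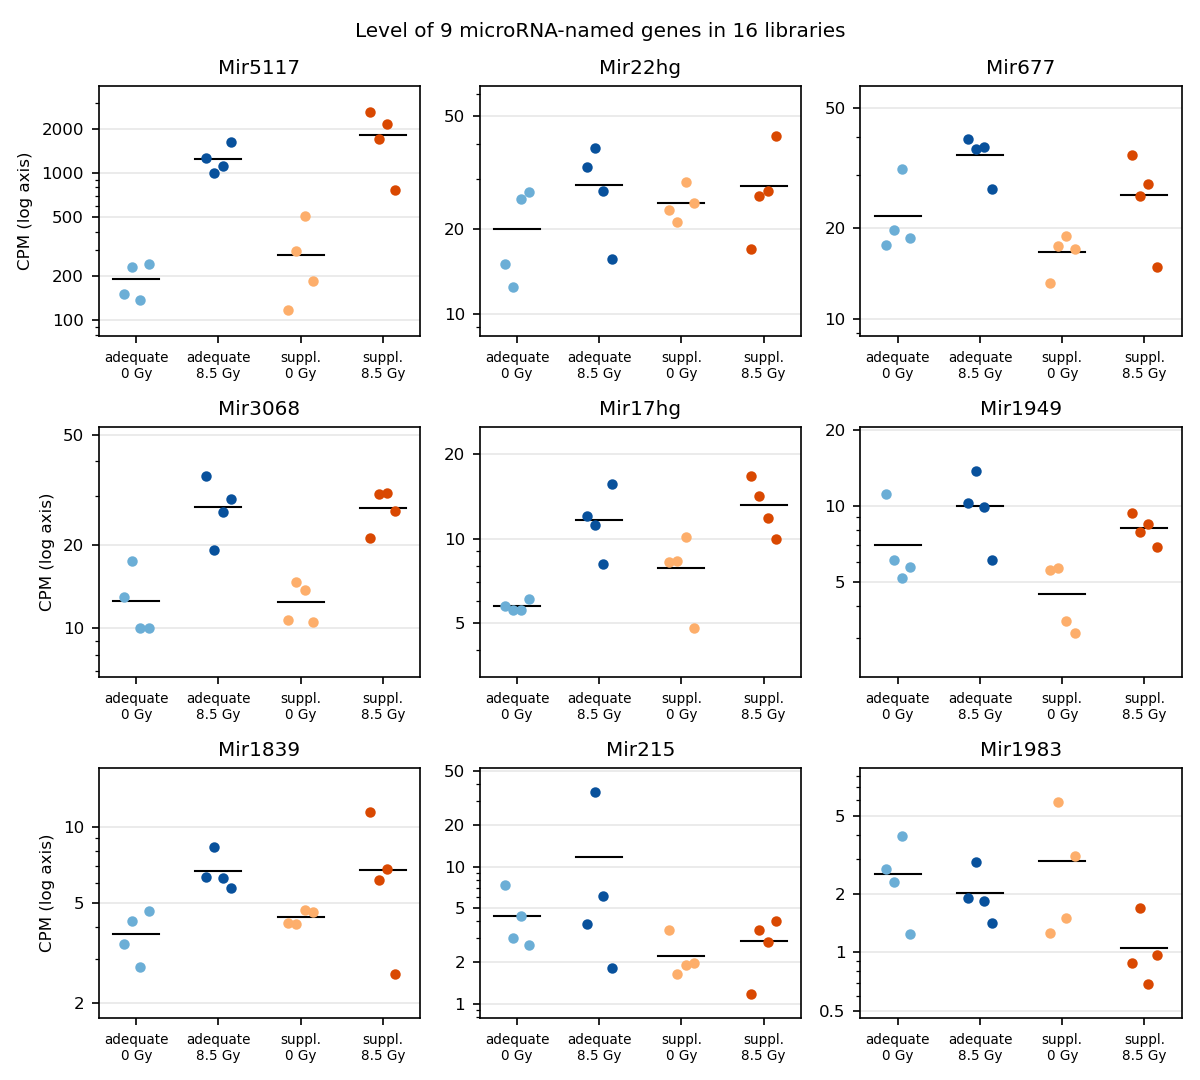
CPM (log axis) of the 9 genes in each of the 16 libraries, by diet and dose. Points are libraries and black lines are group means. Mir5117 and Mir3068 have no overlap between doses on either diet, and 1 library on the adequate diet after 8.5 Gy holds the highest Mir215 value, 34.9 CPM.

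**Figure D2:**
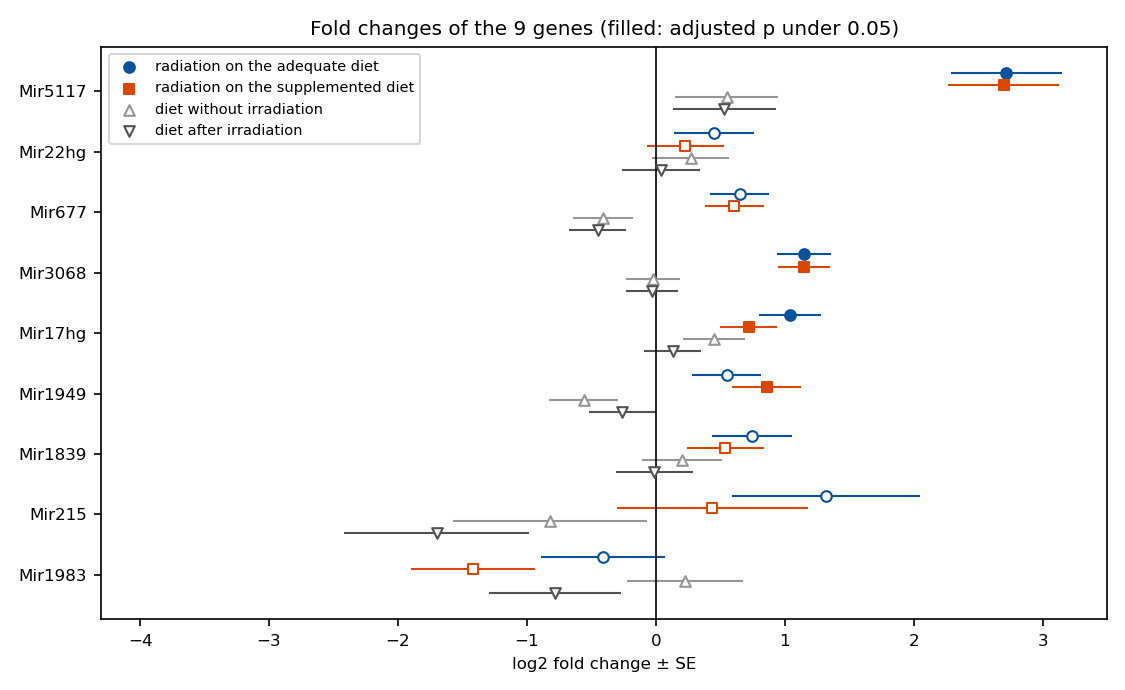
Log2 fold change with its SE for each gene in 4 comparisons, with filled symbols for an adjusted p under 0.05. Mir5117 lies farthest from 0 in both radiation comparisons, and no diet comparison has a filled symbol.

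Mir5117, in the snoRNA host gene Gas5, was the most abundant of the 9 and had the largest fold change. Its CPM in unirradiated mice on the adequate diet was 152, 231, 138 and 241, and after 8.5 Gy it was 1262, 1002, 1112 and 1633. With supplementation the values were 117, 297, 514 and 185 without radiation, and 2603, 1716, 2146 and 770 with it. Every irradiated library was above every unirradiated library, and the lowest irradiated value came from the supplemented diet. The log2 fold change was 2.72 ± 0.43 (SE, adjusted p = 0.000831) on the adequate and 2.7 ± 0.43 (adjusted p = 0.000743) on the supplemented diet, about 6.57-fold and 6.49-fold. The interaction between diet and radiation was -0.02 ± 0.57, which leaves an approximate 95% interval of -1.13 to 1.1 for the difference between diets.

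Mir5117 made up most of the counts on microRNA-named genes. Such genes held 0.0304% ± 0.00535 of counts without radiation and 0.133% ± 0.0365 after it with adequate methionine, then 0.0395% ± 0.018 and 0.186% ± 0.0825 on the supplemented diet (SD, n = 4). Mir5117 made up 64.9% and 88.4% of those counts in adequate-diet mice (0 and 8.5 Gy) and 72% and 92.1% in supplemented mice. All snoRNAs and scaRNAs together went from 3.61% to 8.62% and from 4.07% to 11.4% of counts. Among the 265 other tested snoRNAs and scaRNAs, 137 rose on the adequate and 132 on the supplemented diet, with medians of 0.88 and 0.86. Of those 265, 3 had a larger log2 fold change than Mir5117 on the adequate diet and 0 had one on the supplemented diet.

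Gas5 is a non-coding gene whose introns carry a row of C/D box snoRNAs and whose spliced transcript is known to be kept low by translation-linked decay. Its CPM went from 72.3 ± 4.8 to 201 ± 46.2 with adequate methionine and from 85.3 ± 8.89 to 170 ± 47.9 on the supplemented diet (SD, n = 4). Both changes passed the test, with log2 fold changes of 1.48 ± 0.19 (adjusted p = 0.000133) and 0.99 ± 0.19 (adjusted p = 0.00213) by edgeR. In deposited TPM the means of Gas5 were 33.7 and 46.8, then 39.9 and 33.4, so on that scale the sign turned on the supplemented diet. The median log2 difference of all tested genes on the TPM scale was -0.749 and -0.877. Of the 8 other snoRNA genes inside Gas5, 7 rose on both diets. The exception, Snord78, had 1.2 ± 0.4 (adjusted p = 0.0584) and 0.94 ± 0.37 (adjusted p = 0.101). Snord47 was nearest to Mir5117, at 2.24 ± 0.3 and 2.25 ± 0.3, and Snord80 had 1.61 ± 0.22 and 0.94 ± 0.21. In deposited TPM the means of 2 of those 7 were lower after radiation on the supplemented diet, from 1556 to 1227 for Snord80 and from 985 to 926 for Gm26224, and that of Snord78 went from 73.8 to 59.5. Gas5 and its small RNAs overlap in the annotation, exons of some isoforms included, and RSEM shares reads that match several of them, so the split between host and snoRNA is an estimate.

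**Figure D3:**
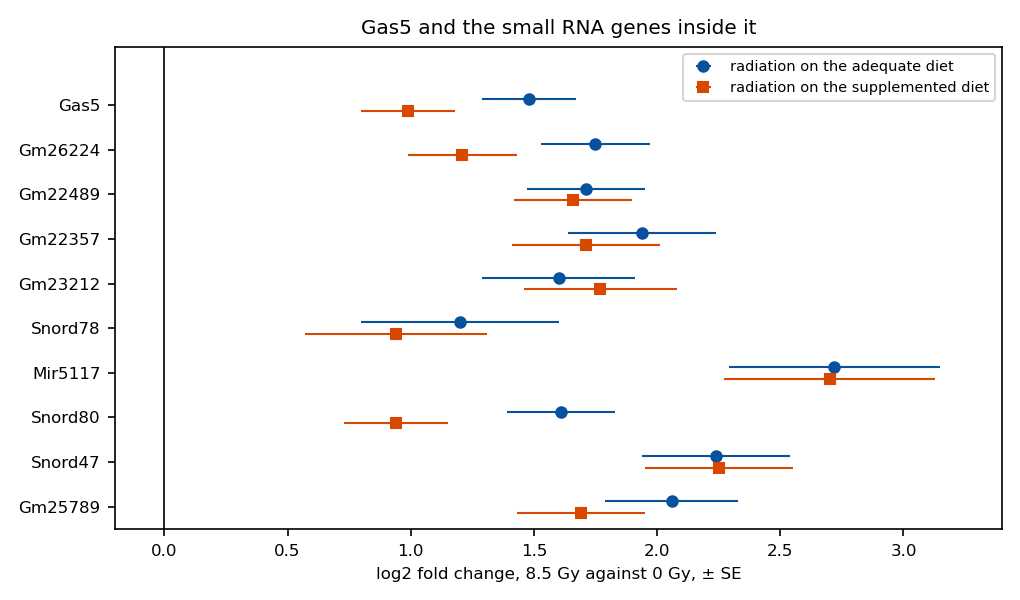
Log2 fold change (8.5 Gy against 0 Gy) with its SE for Gas5 and the 9 small RNA genes inside it, on both diets. Mir5117 lies at 2.72 and 2.7, to the right of Gas5 at 1.48 and 0.99 and of each of the other 8.

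Mir677, the second C/D box gene, lies in an intron of Atp5b, which codes for the beta subunit of the mitochondrial ATP synthase. Its CPM on the adequate diet was 17.6, 19.8, 31.4 and 18.6 without radiation and 39.3, 36.5, 37.0 and 27.0 with it. With supplementation it was 13.2, 17.5, 18.9 and 17.1 without and 34.9, 25.6, 27.9 and 14.9 with radiation. The groups overlap by 1 library on each diet, and the log2 fold changes of 0.65 ± 0.23 (adjusted p = 0.0661) and 0.61 ± 0.23 (adjusted p = 0.0803, edgeR) did not pass the test. Without replicate 3 of the unirradiated adequate group, the library at 31.4, the first was 0.89. The other snoRNA of that host, Snord59a, rose on both diets, by 1.49 ± 0.22 (adjusted p = 0.000553) and 0.99 ± 0.22 (adjusted p = 0.00649). In deposited TPM its mean on the supplemented diet went from 1253 to 990, where the median log2 difference of all tested genes was -0.877.

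The relation of a small RNA to its host gene within a library depends little on how libraries are scaled, only through the 0.5 CPM added to each. It was computed for the 3 genes whose host is in the files, as the log2 ratio of CPM + 0.5, and tested by an exact two-sided permutation of dose within each diet (4900 arrangements, smallest possible p of 0.000408), adjusted over the 3 pairs. Mir5117 rose against Gas5 by 1.55 (1.29 on the adequate and 1.82 on the supplemented diet, exact permutation p = 0.000408, adjusted 0.000612). Mir677 rose against Atp5b by 1.08 (1.16 and 1.0, exact permutation p = 0.00163, adjusted 0.00163). Atp5b itself went from 1685 ± 103 to 1211 ± 84.6 CPM and from 1758 ± 104 to 1314 ± 239 (SD, n = 4), with log2 fold changes of -0.48 ± 0.16 (adjusted p = 0.0607) and -0.42 ± 0.16 (adjusted p = 0.091) that did not pass edgeR's test. Mir3068 rose against Alkbh1 by 1.27 (1.37 and 1.18, exact permutation p = 0.000408, adjusted 0.000612). Snord59a, the other snoRNA of Atp5b, had log2 fold changes of 1.49 and 0.99. Among 265 tested snoRNAs and scaRNAs other than Mir5117 the medians were 0.88 and 0.86. Ratios of other snoRNAs to their hosts were not tested, so these rises are not shown to be particular to the 3 genes.

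The ratios by library show the spread. For Mir5117 against Gas5 the unirradiated libraries on the supplemented diet ran from 0.38 to 2.59 and the irradiated ones from 2.73 to 3.68. For Mir3068 against Alkbh1 the unirradiated libraries on that diet ran from -0.78 to -0.1. The irradiated ones were at -0.02 (replicate 1), 1.04, 1.11 and 1.27, so replicate 1 lay close to the unirradiated libraries. For Mir677 against Atp5b, 1 irradiated library on the supplemented diet, at -6.73, fell among the unirradiated ones at -6.93 to -6.59. That library, replicate 4, was also the lowest of its group for Mir5117, Mir677, Mir17hg, Mir1949 and Mir1839 and the highest for Mir22hg and Mir215, and its snoRNA share of counts, 7.75%, was the lowest of its group, the others lying between 11.2% and 14.2%. Without it the differences by dose were 1.65 for Mir5117, 1.26 for Mir677 and 1.21 for Mir3068.

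**Figure D4:**
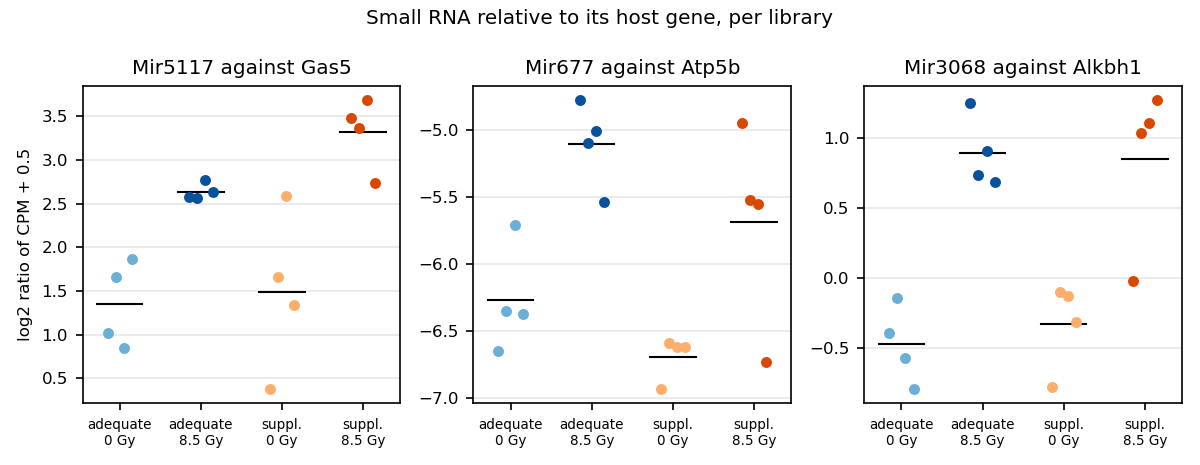
Log2 ratio of each small RNA to its host gene (CPM + 0.5) per library, by diet and dose, with black lines for group means. The irradiated means lie 1.29 and 1.82 (Mir5117), 1.16 and 1.0 (Mir677) and 1.37 and 1.18 (Mir3068) above the unirradiated means on the adequate and supplemented diet.

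Mir3068, an snoRNA-type gene in an intron of Alkbh1, which codes for a demethylase that acts on RNA, rose on both diets. Its CPM on the adequate diet was 13, 17.5, 10 and 9.99 without radiation and 35.5, 19.1, 26.2 and 29.2 with it. Supplemented mice had 10.7, 14.7, 13.8 and 10.5 without and 21.1, 30.4, 30.9 and 26.4 with radiation. The doses did not overlap on either diet, and the log2 fold change was 1.15 ± 0.21 (adjusted p = 0.00203) and 1.15 ± 0.2 (adjusted p = 0.00142, edgeR), 2.22-fold each. Alkbh1 had -0.24 ± 0.19 and -0.09 ± 0.18 and did not pass the test (adjusted p = 0.431 and 0.789).

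Mir1949, also typed as an snoRNA, rose on the supplemented diet. There its CPM was 5.54, 5.66, 3.5 and 3.13 without radiation and 9.39, 7.85, 8.47 and 6.88 with it, with no overlap, and a log2 fold change of 0.86 ± 0.27 (adjusted p = 0.0391). On the adequate diet the values were 11.1, 6.09, 5.16 and 5.71 against 10.3, 13.7, 9.93 and 6.08, which overlap, and the log2 fold change was 0.55 ± 0.27 (adjusted p = 0.187, edgeR). The difference between diets, 0.31 ± 0.38, did not pass the test (adjusted p = 1.0). The call on the supplemented diet was lost with scaling by total counts (0.66, adjusted p = 0.0807) and on leaving out any of 6 libraries (adequate diet 8.5 Gy replicate 1, supplemented diet 0 Gy replicates 3 and 4, supplemented diet 8.5 Gy replicates 1, 2 and 3), with values of 0.72 to 0.99 over all libraries left out.

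Mir1839, typed as a scaRNA, did not pass the test. Its CPM was 3.45, 4.24, 2.78 and 4.66 without and 6.33, 8.3, 6.25 and 5.75 with radiation on the adequate diet, which do not overlap. In supplemented mice it was 4.18, 4.11, 4.69 and 4.6 without and 11.4, 6.18, 6.82 and 2.62 with radiation, where replicate 4 lay below all unirradiated libraries. The log2 fold changes were 0.75 ± 0.31 (adjusted p = 0.114) and 0.54 ± 0.3 (adjusted p = 0.237, edgeR). Without that library the second was 0.82 (adjusted p = 0.0153).

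Mir17hg is the host transcript of the Mir17-92 cluster, a set of hairpins known for promoting cell growth and survival and for its control by Myc. The cluster's main mature microRNAs, printed to show how its 6 hairpins fall into 4 seed families, are, with the seed in capitals:
mmu-miR-17-5p: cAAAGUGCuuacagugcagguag
mmu-miR-20a-5p: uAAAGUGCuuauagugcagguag
mmu-miR-18a-5p: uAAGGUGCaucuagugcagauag
mmu-miR-19a-3p: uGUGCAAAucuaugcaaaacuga
mmu-miR-19b-3p: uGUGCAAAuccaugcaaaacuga
mmu-miR-92a-3p: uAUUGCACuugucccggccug

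miR-17-5p and miR-20a-5p share the seed AAAGUGC, and miR-19a-3p and miR-19b-3p share GUGCAAA. Most of the counts lay on the host transcript. Mir17hg had 1455.77 summed counts, while its hairpin genes had 0.37 (Mir17), 0.66 (Mir20a), 34.27 (Mir92-1) and 0 (Mir18, Mir19a and Mir19b-1). These sums are not scaled by length, and Mir17hg has 3536 bases where Mir92-1 has 80. They therefore do not show that Mir92-1 is lower than its host per length. The hairpin genes overlap Mir17hg on the same strand, and RSEM divides reads that match more than 1 of them. Mir17hg CPM was 5.75, 5.56, 5.57 and 6.09 without and 12.0, 11.2, 8.09 and 15.7 with radiation on the adequate diet, with no overlap. On the supplemented diet it was 8.26, 8.33, 10.1 and 4.79 without and 16.7, 14.2, 11.8 and 9.98 with radiation, where the lowest irradiated library lay just below the highest unirradiated one.

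Mir17hg rose by 1.04 ± 0.24 (adjusted p = 0.00845) on the adequate diet and by 0.72 ± 0.22 (adjusted p = 0.0383, edgeR) on the supplemented diet, 2.06-fold and 1.65-fold. The second call was lost with total counts (0.54, adjusted p = 0.14), without the 3 libraries under 4 M counts (0.62, adjusted p = 0.12), with only the groups compared in the fit (0.71, adjusted p = 0.0674) and on leaving out any of 7 libraries (0.54 to 0.86 over all left out). Those 7 were adequate diet 8.5 Gy replicate 1, supplemented diet 0 Gy replicates 1, 2 and 4, and supplemented diet 8.5 Gy replicates 1, 2 and 3. The interaction was -0.32 ± 0.33 (adjusted p = 1.0).

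Mir22hg is the host transcript of Mir22, whose mature form mmu-miR-22-3p is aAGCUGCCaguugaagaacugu (seed in capitals), a microRNA linked to growth arrest and metabolism. Here too the counts lay on the host, 3828.39 in sum against 42.19 on the Mir22 hairpin. Its CPM was 15, 12.5, 25.6 and 27.1 without and 33.0, 38.6, 27.3 and 15.7 with radiation on the adequate diet, and 23.3, 21.1, 29.3 and 24.6 against 17.0, 26.1, 27.3 and 42.7 on the supplemented diet. The doses overlapped on both diets, with log2 fold changes of 0.45 ± 0.31 and 0.23 ± 0.3 (adjusted p = 0.355 and 0.657, edgeR). Tlcd2, a protein-coding gene that overlaps Mir22hg on the same strand, had 0.5 ± 0.3 and 0.62 ± 0.29 and did not pass the test either (adjusted p = 0.3 and 0.171). Reads in the overlap were divided between the genes by RSEM.

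Mir215, typed as a microRNA and with a catalogued mature sequence on both arms of its hairpin, lies on chromosome 1 in an intron of Iars2 on the opposite strand. On its own strand it lies within the non-coding gene 2010103J01Rik and overlaps an exon of it. A count on Mir215 therefore cannot be assigned to the hairpin rather than to that transcript. Mir215 belongs to the miR-192 family and is a known p53 target. Its CPM was 7.29, 3.0, 4.33 and 2.66 without and 3.8, 34.9, 6.14 and 1.83 with radiation on the adequate diet. Supplemented mice had 3.45, 1.65, 1.9 and 1.96 without and 1.17, 3.42, 2.82 and 3.97 with radiation. A single library, at 34.9, was high and the doses overlapped on both diets.

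The log2 fold change of Mir215 with radiation was 1.32 ± 0.73 (adjusted p = 0.253) on the adequate diet and 0.44 ± 0.74 (adjusted p = 0.739, edgeR) on the supplemented diet. Without the library at 34.9 the first was -0.03 ± 0.43 (adjusted p = 0.98). Between diets after irradiation Mir215 had -1.7 ± 0.72, with an adjusted p of 0.927 by edgeR and an unadjusted one under 0.05. Without that library it had -0.37 ± 0.42 (adjusted p = 1.0). Iars2 had 0.14 ± 0.11 and 0.29 ± 0.11 with radiation, and its adjusted p was 0.429 and 0.0872.

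Mir1983, whose model holds the letters of a transfer RNA B box, was the one gene of the 9 with a negative fold change under radiation on both diets. Its CPM was 2.68, 2.3, 3.92 and 1.24 without and 1.9, 2.9, 1.84 and 1.42 with radiation on the adequate diet, and 1.25, 5.86, 1.5 and 3.13 against 0.88, 1.68, 0.689 and 0.969 on the supplemented diet. The doses overlapped on both diets. The log2 fold change was -0.41 ± 0.48 (adjusted p = 0.62) and -1.42 ± 0.48 (adjusted p = 0.0532, edgeR). On the supplemented diet it was -0.85 without replicate 2 of the unirradiated group, the library at 5.86.

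The 612 microRNA-named genes under the threshold held 2360.64 counts in all, with a median of 0 per gene, and 609 of them are typed as microRNAs. All 10 let-7 and Mir98 family genes in the files, known for differentiated tissues, had a count, and together they held 380.2, led by Mirlet7g (135) and Mirlet7a-1 (107). Of 15 epithelial genes 12 had a count, with Mir182 at 134, Mir194-1 at 34.97 and Mir31 at 31.83 below the threshold. Of 12 leukocyte genes all had a count, 111.3 in sum, led by Mir181a-2 with 37. The 3 erythroid genes held 7.07 together, the 4 endocrine ones 17.0, the 12 of muscle and fibroblasts 83.37, and the endothelial Mir126a 0. Of 10 genes linked to p53, 7 had a count, with Mir143 at 36 and Mir192 at 26.68. Beside Mir22hg, the injury and stress genes held 72.63, among them Mir21a with 9.58, and of 18 Dlk1-Dio3 genes 3 had a count, 11.44 in sum. Of 16 genes of the Mir17-92 family clusters 7 had a count, with 39.8 beside Mir17hg, and of 6 entries known as pieces of ribosomal, transfer or small nucleolar RNA 2 had one, with 2 beside Mir1839. These genes are not compared singly between groups here.

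The summed CPM of the 609 microRNA-type genes under the threshold followed the library rather than the group. In the 3 libraries under 4 M counts it was 38.1 to 42.7 CPM, and in the 13 others 9.77 to 24. The counts before scaling were not higher in those 3, at 99.3 to 129.2 against 95.71 to 226.1 in the 13 others. The implied mean read length was 45.03 to 46.61 bases in those 3 and 46.11 to 48.37 in the others. They belong to 3 groups: unirradiated on the adequate diet and irradiated on each diet, 1 each. Group values of this sum were 19.9 ± 13.4, 23.8 ± 13.5, 12.9 ± 2.58 and 18.9 ± 12.8 CPM (adequate 0 and 8.5 Gy, supplemented 0 and 8.5 Gy, SD, n = 4). The library with Mir215 at 34.9 CPM is one of those 3, and the other two had 7.29 and 1.17 CPM. The part of depth and read length in these values was not tested.

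**Figure D5:**
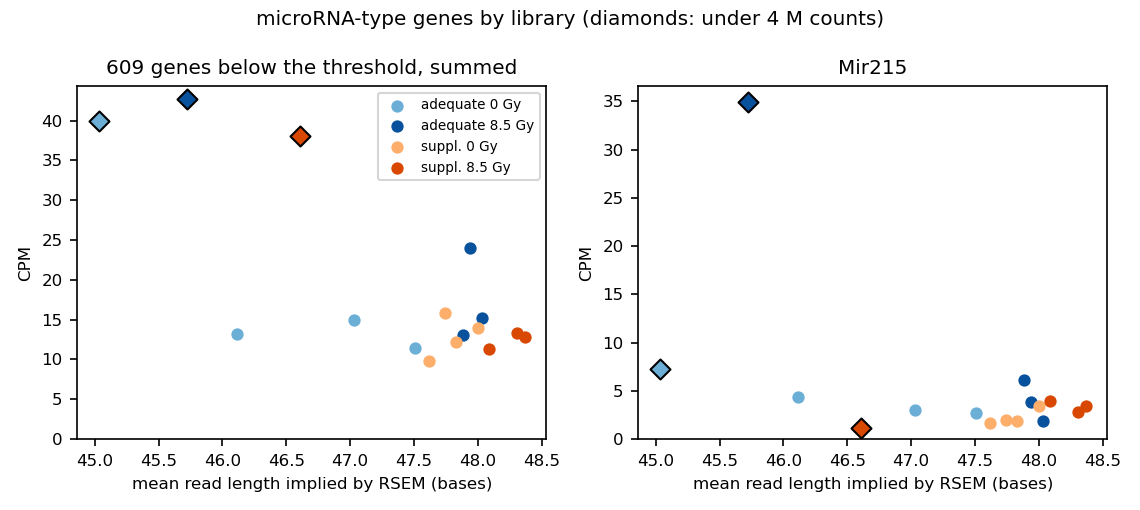
Summed CPM of the 609 microRNA-type genes under the threshold (left) and CPM of Mir215 (right) against the mean read length implied by the effective lengths, 1 point per library. Diamonds are the 3 libraries under 4 M counts, which lie at 38.1 to 42.7 CPM on the left.

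Diet made no difference that passed the test in any of the 9 genes. Without irradiation 0 of 9 were called, where 0.199% of all tested genes were, and 0 of 9 had an unadjusted p under 0.05 by edgeR, and DESeq2 and limma also called 0. The nearest to it were Mir1949 at -0.56 ± 0.27 (adjusted p = 0.437) and Mir17hg at 0.45 ± 0.24 (adjusted p = 0.475). Mir5117 had 0.55 ± 0.4 with an approximate 95% interval of -0.24 to 1.34, which holds 0 and also larger differences between diets. The smallest difference that could be detected was not computed. After irradiation 0 of 9 were called, where 0.0% of all genes were, with 1 unadjusted p under 0.05 (Mir215, above), and limma called 0. DESeq2 also called 0, but it gave an adjusted p to only 4032 genes in that comparison. Genes without one could not be called, and which of the 9 had one was not recorded. In the interaction 0 of 9 were called, where 0.0% of all genes were, with no unadjusted p under 0.05 by edgeR and 0 calls by DESeq2 and limma. Medians of the 9 were 0.2, -0.03 and -0.21.

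Some of the genes that make and use microRNAs were called. Of 46 listed symbols 42 were in the files and 39 were tested. On the adequate diet 2 rose and 1 fell with radiation, beside 13.7% of all tested genes changed in either direction, and on the supplemented diet 0 rose and 3 fell, beside 15.2%. Whether the list differs from all tested genes in its share of calls was not tested. The list's medians were 0.02 and 0.06. Drosha had 0.08 ± 0.1 and 0.12 ± 0.1 (adequate and supplemented diet), Dgcr8 0.07 ± 0.16 and 0.33 ± 0.15, Dicer1 -0.1 ± 0.09 and 0.11 ± 0.09, Xpo5 0.12 ± 0.17 and 0.25 ± 0.16, and Ago2 -0.08 ± 0.1 and -0.17 ± 0.1. None of these 5 passed the test in any comparison.

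Adar, which edits adenosine to inosine in double-stranded RNA and is induced by interferon, fell on both diets. Its CPM was 108, 101, 128 and 103 without and 60.4, 69.3, 66.6 and 77.2 with radiation on the adequate diet, and 177, 168, 144 and 153 against 70.4, 61.3, 57.0 and 82.9 on the supplemented diet. No irradiated library reached an unirradiated one, and the log2 fold change was -0.69 ± 0.13 (adjusted p = 0.00315) and -1.24 ± 0.13 (adjusted p = 3.03e-05, edgeR). The interaction, -0.56 ± 0.19, did not pass the test (adjusted p = 0.967). Tarbp2, a partner of Dicer1, fell on the supplemented diet by 0.58 ± 0.17 on the log2 scale (adjusted p = 0.0266, edgeR), a call lost without the 3 libraries under 4 M counts and without any 1 of 6 libraries (supplemented diet 0 Gy replicates 1, 2 and 4, supplemented diet 8.5 Gy replicates 1, 2 and 3), at -0.69 to -0.5 over all left out. On the adequate diet it had -0.51 ± 0.17 (adjusted p = 0.0523), with no overlap between doses.

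Tut4, a terminal uridylyl transferase that tags let-7 precursors and messages, was the one gene of this list called between diets. Without radiation its CPM was 15.3, 15.2, 20.8 and 20.2 on the adequate and 33.4, 37.1, 42.7 and 26.3 on the supplemented diet, which do not overlap, at 0.95 ± 0.16 (adjusted p = 0.0218, edgeR). With radiation on the supplemented diet it fell by 0.5 ± 0.15 on the log2 scale (adjusted p = 0.0359), and after irradiation the diets differed by 0.25 ± 0.16 (adjusted p = 0.937). The call between diets was lost without the 3 libraries under 4 M counts (adjusted p = 0.113) and without any 1 of 5 libraries, replicates 1 and 2 of the unirradiated adequate group and replicates 1, 2 and 3 of the unirradiated supplemented group (0.84 to 1.06 over all left out). The fall with radiation was lost without any 1 of 5 libraries (supplemented diet 0 Gy replicates 1, 2 and 3, supplemented diet 8.5 Gy replicates 2 and 3, -0.61 to -0.39) and with only the groups compared (adjusted p = 0.053).

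Xrn2 and Ddx6, in RNA decay, rose on the adequate diet by 0.38 ± 0.12 (adjusted p = 0.0406) and 0.32 ± 0.1 (adjusted p = 0.0322, edgeR). Both calls were lost with total counts, with no filter and without the 3 libraries under 4 M counts, and that of Ddx6 also with only the groups compared. Leaving out 1 library ended the call of Xrn2 for 10 libraries (adequate diet 0 Gy replicates 1, 2 and 3 and 8.5 Gy replicates 1, 2 and 4, supplemented diet 0 Gy replicates 1 and 2 and 8.5 Gy replicates 2 and 3, at 0.33 to 0.42). It ended that of Ddx6 for 6 (adequate diet 0 Gy replicates 1, 2 and 4 and 8.5 Gy replicates 1, 2 and 3, at 0.31 to 0.36). In deposited TPM both had lower means after irradiation, 9.13 against 3.94 for Xrn2 and 8.24 against 4.93 for Ddx6 (0 against 8.5 Gy, adequate diet). Most tested genes were lower on that scale, with a median log2 difference of -0.749 on this diet.

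Markers of other cells moved with dose beside these results. The summed CPM of 5 erythroid markers was 365 to 591 without and 3.28 to 8.66 with radiation on the adequate diet, and 120 to 393 against 3.59 to 28 on the supplemented diet. That of 5 Paneth cell markers was 2160 to 3168 against 6891 to 10218 and 2765 to 4730 against 8706 to 13231. All 5 genes of each list were called on both diets. Of 8 enteroendocrine markers 4 rose on each diet, with sums of 286 to 335 against 414 to 667 and 292 to 408 against 413 to 601. Of 6 goblet cell markers 2 rose on the adequate and 3 on the supplemented diet, with sums of 9385 to 9980 against 10691 to 14157 and 8157 to 9302 against 10633 to 17513. Of 4 exocrine pancreas markers 1 fell on the adequate diet (1.77 to 8.97 against 1.58 to 3.07) and 4 rose on the supplemented diet (0.489 to 1.54 against 1.47 to 9.09). Of 7 leukocyte markers tested 1 rose and 1 fell on the adequate diet and 1 rose and 2 fell on the supplemented diet, in both cases with overlapping sums. Of 5 fibroblast markers 1 rose on each diet, and of 2 striated muscle markers tested 1 fell on the adequate diet. No tuft cell, smooth muscle or endothelial marker was called. Enterocyte markers were present in every library, at 12787 to 54648, with 0 of 11 called, and the 2 ileal markers were at 1.53 CPM or less. The part of these cells in the levels of the 9 genes was not tested.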

How the data were processed

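RNA from proximal jejunum was sequenced in 16 libraries. Per the submitters' processing notes, the tools named are Bowtie2 2.2.9, RSEM 1.3.0 and edgeR 3.2.4 on build NCBIM37. The deposited files hold RSEM expected counts (estimated counts per gene) and TPM, with length and effective length, per the file headers. Totals were 2.57 to 15.51 M counts, 3 libraries being under 4 M.

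Symbols, types and gene models came from GENCODE M21 (32897 IDs matched, 4723 did not), a later build, so no coordinates are given. Mature sequences came from RefSeq. Expected counts were rounded and tested with edgeR 4.0.16 (filterByExpr with 16558 genes kept, TMM, robust quasi-likelihood F test, two-sided, 1 mean per group) in R 4.3.3, with Benjamini-Hochberg adjustment in each of 5 comparisons. All 9 members passed the filter. The SE is the log2 fold change divided by the square root of F. DESeq2 1.42.0, limma 3.58.1, other scalings, filters and left-out libraries were alternatives, and limma on deposited TPM (pseudocount 0.5) was added after seeing the data. Named genes are those called, the most abundant, those beside the threshold, their host genes and fixed lists. Members and lists were chosen with earlier results of these data known.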

Additional observations from a re-analysis of the deposited data

Results flagged for a closer look

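In each group of 4 libraries the highest and lowest were checked for a gap to the next library that, as part of the group's range, exceeds Dixon's 95% critical value, over 48 groups. Chance alone flags about 1 in 20 such groups. Mir677 had 1 unirradiated library on the adequate diet (replicate 3) far above the others, at 31.4 CPM. Mir1949 had 1 unirradiated library on the adequate diet (replicate 1) far above the others, at 11.1 CPM. Mir215 had 1 irradiated library on the adequate diet (replicate 2) far above the others, at 34.9 CPM. The log2 ratio of Mir677 to Atp5b had 1 unirradiated library on the supplemented diet (replicate 1) below the other 3, at -6.93.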

How the results depend on the processing

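No paired analysis was possible because the labels carry no replicate numbers or animal identifiers. The replicate numbers used here follow sample order and pair no libraries. The number of the 9 genes called was 5 with only the groups compared on the adequate diet (3 as reported) and 2 at an adjusted p under 0.01 on the supplemented diet (4 as reported). Leaving out 1 library at a time gave 3 to 5 genes on the adequate diet (5 without supplemented diet 8.5 Gy replicate 4) and 2 to 6 on the supplemented diet, and 0 in the diet comparisons and the interaction. Mir5117 and Mir3068 on both diets and Mir17hg on the adequate diet kept their calls under every count-based alternative. Genes not called as reported passed the test in some: Mir677 on the adequate diet in 5 of 24 (DESeq2, only the groups compared, and without adequate diet 0 Gy replicate 3, adequate diet 8.5 Gy replicate 4 or supplemented diet 8.5 Gy replicate 4, at 0.48 to 0.89 over all 24), and Mir1983 on the supplemented diet in 5 of 24 (DESeq2, total counts, and without adequate diet 0 Gy replicate 4 or supplemented diet 0 Gy replicate 1 or 3, at -1.81 to -0.85). Without supplemented diet 8.5 Gy replicate 4, Mir677 (0.8) and Mir1839 (0.82) passed on the supplemented diet and Mir1839 on the adequate diet, where it also passed with only the groups compared.

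On deposited TPM, an alternative chosen after seeing the data, 2 genes were called on the adequate diet (Mir5117 higher, Mir1983 lower) and 6 on the supplemented diet (Mir5117 higher, 5 lower). There Mir17hg reversed to -0.04 and -0.3 (adequate and supplemented diet), Mir3068 to -0.15 and Mir1949 to -0.36 on the supplemented diet, while Mir3068 on the adequate diet was 0.07. The share that short RNAs take of TPM enters these values by construction. Scaling by total counts shifted the median of all genes by -0.162 and -0.196, with 614 higher and 2258 lower on the adequate diet (1180 and 1090 as reported) and 671 and 2959 on the supplemented diet (1329 and 1194). The host ratios stayed past the threshold under all alternatives (1.37 to 1.74, 0.96 to 1.26 and 1.2 to 1.42 on leaving out 1 library for Mir5117, Mir677 and Mir3068).

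Between diets without irradiation all tested genes called numbered 33 as reported, 167 higher and 62 lower by DESeq2, 111 and 28 with only the groups compared, and 0 without the 3 libraries under 4 M counts. Genes near 1 CPM rest on few counts in those 3 libraries.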
